A study of Homo sapiens and Mus musculus with 69 samples.

Results

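H82 and H524 are established human small cell lung cancer lines, and their untreated parental cultures were compared gene by gene by bulk RNA sequencing. The comparison used 6 libraries, 3 of parental H82 (libraries 1, 2 and 3) and 3 of parental H524 (libraries 19, 20 and 21), of 60 human libraries and 69 libraries in all. The parental cells carried no vector and received no doxycycline. The same lines were also sequenced after introduction of a doxycycline-inducible vector for the active intracellular domain of NOTCH1, without doxycycline (libraries 4 to 6 for H82 and 22 to 24 for H524) and with it (libraries 7 to 9 and 25 to 27), and H524 with an inducible REST vector without doxycycline (libraries 34 to 36). Values are also given for 2 other small cell lines, parental H69 (libraries 46 to 48) and COR-L88 treated with DMSO (libraries 10 to 12). The labels name the first line NCI-82 in one field and H82 in another. Each line stands for 1 tumor, and the labels do not say that the 3 libraries of a line came from separate cultures, so *P* values measure the spread between libraries, which may be technical.

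Small cell lung cancer is a neuroendocrine tumor of the lung, and its cell lines are commonly grouped by the transcription factor that dominates them, NEUROD1 and POU2F3 among these factors, with YAP1 marking cells that have left the neuroendocrine state. NEUROD1 is a basic helix-loop-helix factor that drives neuronal genes, and Notch signaling and its target REST, a repressor of neuronal genes, oppose the neuroendocrine program. Lines of the same group can still differ widely, because each also carries the copy number changes and silenced genes of its own tumor.

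Values were log2(RPKM + 1), where RPKM is the read number scaled by transcript length and library size, so that 1 unit of difference stands for a 2-fold change in a well-expressed gene and for more than that in a low one. The deposited values hold no read counts and the depth of each library is unknown. Relative sizes set against the median human library could be read from the table and were 1.20, 1.39 and 1.35 in H82 and 1.12, 0.668 and 0.979 in H524. Pearson correlations across genes were 0.972 to 0.989 between libraries of the same line and 0.892 to 0.913 between lines. A few libraries stood apart from the others of their line. H82 library 1 had a mean of 7.96 over 12 hypoxia-response genes, against 5.10 and 3.51 in libraries 2 and 3, and a mean of 5.45 over 7 immediate early genes, against 2.91 and 2.79. H524 library 20 had a mean of 9.40 over 8 heat shock genes, against 8.13 and 6.09 in libraries 19 and 21. Over 6 targets of FGF-ERK signaling, H524 library 19 had a mean of 3.99, against 1.85 and 2.29. These 4 sets were chosen after their values were seen, and their part in the differences between the lines was not tested.

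Both lines expressed neuroendocrine genes and *NEUROD1*. *NEUROD1* was 13.67, 13.20 and 13.07 in the H82 libraries and 14.27, 13.07 and 14.02 in the H524 libraries, a difference of -0.47 ± 0.38 (SE), H82 minus H524 (adjusted *P* = 0.345, limma). *POU2F3* (at most 0.31) was too low to test. The neuroendocrine markers *SYP*, which codes for synaptophysin, and *CHGA*, which codes for chromogranin A, differed by 0.06 ± 0.27 (adjusted *P* = 0.88) and 0.49 ± 0.24 (adjusted *P* = 0.133), with SYP at 5.81 or above in all 6 libraries. *MYC* was 9.20, 8.71 and 9.15 in H82 and 8.89, 8.92 and 8.99 in H524, a difference of 0.08 ± 0.23 (adjusted *P* = 0.793), while *MYCN* was at most 0.94. Of 21 markers of other cell types in the table, 4 were at 0 in all 6 libraries, among them *PTPRC* (CD45, carried by blood cells), and 16 were below 1 in all 6. Summed over the 21 markers, RPKM was 4.71 to 18.4 in H82 and 7.92 to 10.6 in H524. The called members were *FOXJ1*, a factor of ciliated cells, at 1.65 to 3.37 in H82 and 0.12 to 0.31 in H524, and *CD8A* and *COL1A1*, which were higher in H524. *CD8A* marks a class of T cells and was 0.50 to 0.90 in H82 and 1.93 to 2.61 in H524, while the monocyte markers *CD14* and *CD68* reached 2.46 in H524 and 2.85 in H82. Of the called markers only *CD8A* was called again in the uninduced NOTCH1 vector libraries. There *FOXJ1* was 0 to 0.25 in H82 and 0.53 to 1.63 in H524, and *COL1A1* had means of 2.41 and 0.87.

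Beside the similar levels of *NEUROD1*, *SYP*, *CHGA* and *MYC*, 4108 of 12425 genes tested differed, a share of 33.1%. Other neuroendocrine genes, such as *INSM1*, were among those that differed. A gene was called at an adjusted *P* under 0.05 and a log2 difference of at least 1. Higher in H82 were 2014 genes (16.2% of those tested) and higher in H524 were 2094 (16.9%). Differences were often large, with 519 genes higher in H82 and 846 higher in H524 by at least 2 log2 units, and 62 and 58 by at least 5. The median difference was 1.52 among genes called higher in H82 and -1.77 among those called higher in H524, against 0.09 over all genes tested, and the median SD between libraries of a line was 0.274 in H82 and 0.317 in H524. The 3 libraries of one line did not overlap the 3 of the other for 7027 genes (56.6%). Without H82 library 1 and H524 library 20 the counts were 1872 and 2126, and 3556 of the 4108 genes kept their call.

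**Figure D1:**
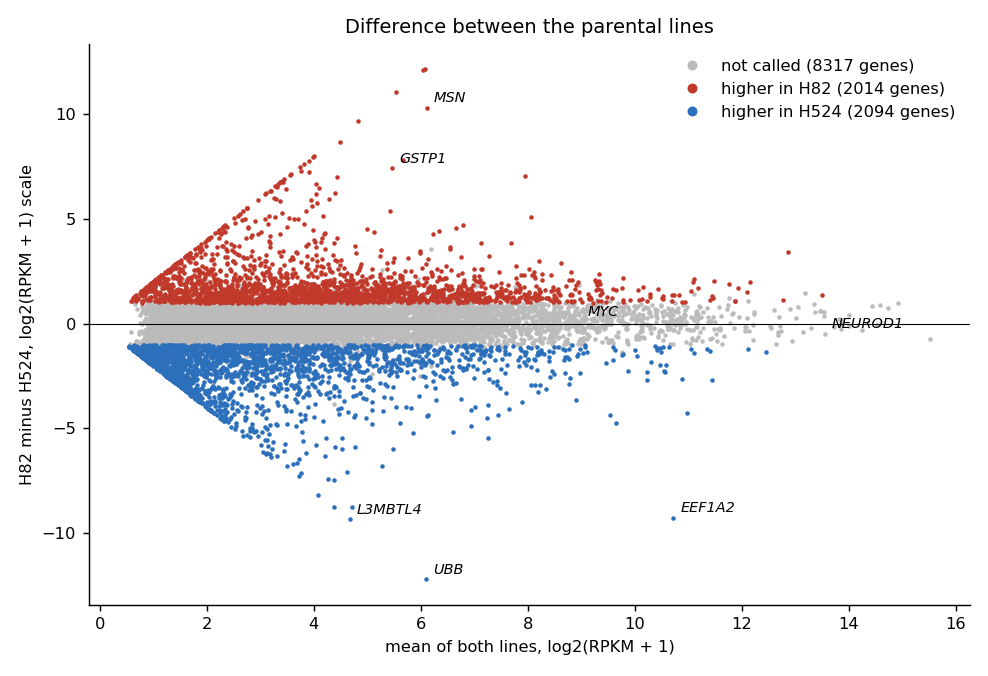
Difference between the parental lines (vertical axis, log2(RPKM + 1), H82 minus H524) against the mean level over the 6 libraries (horizontal axis, log2(RPKM + 1)) for the 12425 genes tested. Points are genes, colored where called. Of these 2014 lie on the side of H82 and 2094 on the side of H524, with *MSN* and *GSTP1* far above 0, *UBB*, *EEF1A2* and *L3MBTL4* far below it, and *MYC* and *NEUROD1* near it.

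The widest differences were between presence and absence. Listed at 0 in all 3 libraries of one line and at 3 or more in each library of the other were genes of 2 sets, 42 present in H82 and 28 present in H524. No fold is given for these genes, because a value listed at exactly 0 has no depth behind it. *HNMT*, which inactivates histamine, was 7.92, 7.83 and 8.25 in H82 and listed at 0 in H524 (adjusted *P* = 6.13e-07). *RP1*, a photoreceptor ciliary gene, was 10.10, 9.20 and 9.71 in H82 and listed at 0 in H524. Neither gene had a library of one line near those of the other. The retinal gene *PDC* (phosducin, 7.15 to 8.99 in H82 and 0.00 to 0.10 in H524) was likewise among the 10 widest differences toward H82.

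In the other direction, *UBB* (chr17:16284112-16286059 in GRCh37), a gene that codes for ubiquitin, was listed at 0 in the 3 H82 libraries and was 11.87, 13.33 and 11.44 in H524 (adjusted *P* = 1.24e-06). *UBB* is a gene that every cell uses, so an exact 0 may be a failed estimate rather than a missing transcript, and the gene consists of near-identical repeats, so its value is uncertain. *UBB* was also 0.00 to 0.48 in the 3 uninduced vector libraries of H82 and 11.06 to 12.65 in those of H524. *NKX2-1*, the homeobox factor of lung and thyroid, was 5.95, 6.73 and 5.70 in H524 and listed at 0 in H82 (adjusted *P* = 5.39e-06). *POU3F3*, a neuronal POU factor, was 8.13, 7.86 and 8.54 in H524 and listed at 0 in H82, and so were *ADAMTS2*, a procollagen protease (8.34 to 9.14 in H524), and *L3MBTL4*, a histone-binding protein (9.02 to 9.51).

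Of the 42 genes present in H82, 39 were called in the same direction in the uninduced vector lines, and of the 28 present in H524, 19 were. Too low to test there were *APOD* and *MIR296* of the 42. Of the 28, *IRX1*, *BARHL1*, *BACE2*, *KCNJ4*, *KCNG1*, *CYYR1* and *NPAS2* were, so the 2 counts cannot be set against each other. Over all parental calls tested there, 54.9% toward H82 and 57.7% toward H524 recurred. In the uninduced REST vector libraries of H524, all 28 reached 1 in at least 1 library, and 2 of the 42 did. The 2 further small cell lines were parental H69 and COR-L88 treated with DMSO. Of the 42, 24 had a mean below 1 in both of these lines, and so did 3 of the 28, counts that were not tested against each other.

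The sequence before the start is shown for 5 of these genes and for *GSTP1*, because the families present in H82 included genes that somatic tissues keep silent. Each line gives the 250 bases upstream of the first listed start, 5′ to 3′ on the strand of the gene, from RefSeq (GRCh38.p14). Capitals mark the dinucleotide CG, the site of DNA methylation in human cells. The first 3 genes were listed at 0 in H524, *GSTP1* was 1.49 to 1.89 there, and the last 2 were listed at 0 in H82. The windows are chr2:137964223-137964472 (*HNMT*), chrX:49589246-49589495 (*GAGE2A*), chrX:141903644-141903893 (*MAGEC1*), chr11:67583562-67583811 (*GSTP1*), chr17:16381040-16381289 (*UBB*) and chr2:104853865-104854114 (*POU3F3*), all on the plus strand.
HNMT: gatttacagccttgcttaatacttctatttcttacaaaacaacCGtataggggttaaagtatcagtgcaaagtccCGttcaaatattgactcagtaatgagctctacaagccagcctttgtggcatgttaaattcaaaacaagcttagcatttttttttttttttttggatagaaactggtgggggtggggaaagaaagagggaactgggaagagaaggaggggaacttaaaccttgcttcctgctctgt
GAGE2A: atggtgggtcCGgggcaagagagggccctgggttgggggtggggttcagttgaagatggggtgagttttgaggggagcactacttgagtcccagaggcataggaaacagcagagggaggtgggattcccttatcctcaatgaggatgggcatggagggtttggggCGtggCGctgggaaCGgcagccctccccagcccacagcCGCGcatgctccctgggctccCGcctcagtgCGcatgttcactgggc
MAGEC1: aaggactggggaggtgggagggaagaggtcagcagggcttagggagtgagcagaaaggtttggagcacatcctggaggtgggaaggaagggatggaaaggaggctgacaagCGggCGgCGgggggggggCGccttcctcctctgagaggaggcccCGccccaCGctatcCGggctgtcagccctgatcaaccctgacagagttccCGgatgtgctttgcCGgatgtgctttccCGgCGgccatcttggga
GSTP1: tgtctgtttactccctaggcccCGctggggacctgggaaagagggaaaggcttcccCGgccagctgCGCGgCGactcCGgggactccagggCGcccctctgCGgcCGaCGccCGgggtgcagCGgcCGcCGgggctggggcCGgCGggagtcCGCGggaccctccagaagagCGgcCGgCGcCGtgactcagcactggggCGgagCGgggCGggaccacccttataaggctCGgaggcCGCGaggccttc
UBB: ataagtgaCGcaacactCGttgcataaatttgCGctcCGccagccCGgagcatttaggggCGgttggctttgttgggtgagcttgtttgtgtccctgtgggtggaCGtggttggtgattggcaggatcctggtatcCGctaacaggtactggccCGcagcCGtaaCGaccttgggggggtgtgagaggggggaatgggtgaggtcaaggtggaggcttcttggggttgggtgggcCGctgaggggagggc
POU3F3: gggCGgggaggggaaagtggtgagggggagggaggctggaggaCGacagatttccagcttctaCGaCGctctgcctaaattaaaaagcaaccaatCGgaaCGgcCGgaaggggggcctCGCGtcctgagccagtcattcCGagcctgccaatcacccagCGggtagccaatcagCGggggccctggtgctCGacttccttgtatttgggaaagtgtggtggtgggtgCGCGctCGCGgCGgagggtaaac

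HNMT held 2 CG in this window, GAGE2A 8, MAGEC1 11, UBB 12, POU3F3 18 and GSTP1 28. CG was counted on the plus strand, which gives the same sites on both. Among the 9945 genes tested that had a window, the median was 21 and 74.7% held at least 15, against a median of 11 and 42.7% over all 27305 windows. Of the 42 genes present in H82 and listed at 0 in H524, 21 had a window, with a median of 8, and 2 (9.52%) held at least 15. Of the 28 present in H524 and listed at 0 in H82, 24 had a window, with a median of 16.5, and 13 (54.2%) held at least 15. Genes called higher in H82 or H524 overall had medians of 20 and 21, with 69.5% and 67.5% at 15 or more. These counts describe the letters of the windows, and no methylation was measured.

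Cancer-testis antigen genes formed the most lopsided group. These genes are active in germ cells and silent in most adult tissue, and many sit as near-identical copies on the X chromosome. Of 113 listed, 26 were at 0 in all 6 libraries and 30 were tested, and 27 of these were higher in H82 and none higher in H524, against 16.2% and 16.9% of all genes tested. Members at 0 in H524 could pass the filter only through H82. Their direction was thus fixed by the filter, and the share is a description. The median difference over the 30 was 4.72, and 19 of the 27 were listed at 0 in all 3 H524 libraries, so that this median depends on the pseudocount. *GAGE2E* was 12.40, 11.96 and 11.94 in H82 and listed at 0 in H524 (adjusted *P* = 1.07e-07). *MAGEC1* was 5.71, 5.37 and 5.49 in H82 and listed at 0 in H524. The family was not silent throughout in H524. *MAGEA6* was 7.27, 6.57 and 7.15 in H82 and 5.12, 5.12 and 5.15 in H524, a difference of 1.87 ± 0.25 (adjusted *P* = 0.000656). *CSAG2*, *DDX43* and *TEX15* were tested and not called. How reads were shared among the copies of *GAGE* and *MAGEA* genes is not known, so the level of a single copy is uncertain. In the uninduced vector lines 29 of the same 30 members were higher in H82, and all 27 parental calls recurred. The 30 had passed the filter on the parental libraries, at least 19 of them through H82 alone. Near-identical copies are also not independent of each other, so this recurrence is a description.

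The lineage factors that differed were mostly higher in H524. Of 37 tested, NEUROD1 among them, 5 were higher in H82 (13.5%) and 17 in H524 (45.9%), with a median difference of -1.04. Here and in the lists below, shares stand against 16.2% and 16.9% of all genes tested. *INSM1*, a zinc finger factor of neuroendocrine cells, was 2.46, 3.58 and 3.67 in H82 and 8.11, 7.76 and 8.09 in H524, a difference of -4.75 ± 0.34 (adjusted *P* = 2.97e-05), with no overlap. *MYT1L*, a repressor of non-neuronal genes, differed by -4.13 ± 0.21. Higher in H82 were *NEUROG1*, a proneural factor (difference of 3.23 ± 0.28, adjusted *P* = 7.45e-05), and *YAP1*, the effector of the Hippo pathway. *YAP1* was 2.82, 2.36 and 2.60 in H82 and 0.00, 0.00 and 0.16 in H524, a difference of 2.54 ± 0.20 (adjusted *P* = 4.08e-05), so it was low in both lines and without overlap.

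Neuroendocrine and secretory granule genes followed the same side. Of 38 tested, 3 were higher in H82 (7.89%) and 15 in H524 (39.5%), and the median was -0.84. *SEZ6L*, a membrane protein of neurons, differed by -3.83 ± 0.28 (adjusted *P* = 3.29e-05), and the neuronal RNA-binding genes *ELAVL3* and *ELAVL4* by -3.34 ± 0.22 and -3.19 ± 0.29. Higher in H82 were *ENO2*, neuron-specific enolase, by 1.40 ± 0.26 (adjusted *P* = 0.00345), *CADPS*, a factor of vesicle priming, by 1.50 ± 0.26, and *SCG5*. Of 9 neuropeptide and hormone genes tested, 2 were higher in H82 (22.2%) and 5 in H524 (55.6%). *PENK*, the proenkephalin gene, was 0.49, 0.04 and 0.04 in H82 and 4.17, 4.37 and 4.37 in H524, a difference of -4.11 ± 0.22 (adjusted *P* = 8e-06). *NPY*, neuropeptide Y, was 5.74, 5.80 and 3.21 in H524 and listed at 0 in H82.

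Receptor and channel genes of neurons had 7 members higher in H82 (15.6%) and 24 in H524 (53.3%) of 45 tested, with a median of -1.32. *CACNA1A*, the pore of P/Q-type calcium channels, was 0.65, 0.00 and 0.32 in H82 and 9.79, 8.65 and 8.84 in H524, a difference of -8.77 ± 0.34 (adjusted *P* = 1.71e-06). *GRIN1*, the shared subunit of NMDA receptors, differed by -4.80 ± 0.37, whereas *GRIA1*, a subunit of AMPA receptors, was higher in H82 by 4.76 ± 0.30 (adjusted *P* = 1.48e-05). *EEF1A2* (chr20:62119366-62130592 in GRCh37), the form of elongation factor 1 alpha found in neurons and muscle, was 7.67, 5.69 and 4.86 in H82 and 15.20, 15.82 and 15.05 in H524, a difference of -9.28 ± 0.64 (adjusted *P* = 2.31e-05).

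**Figure D2:**
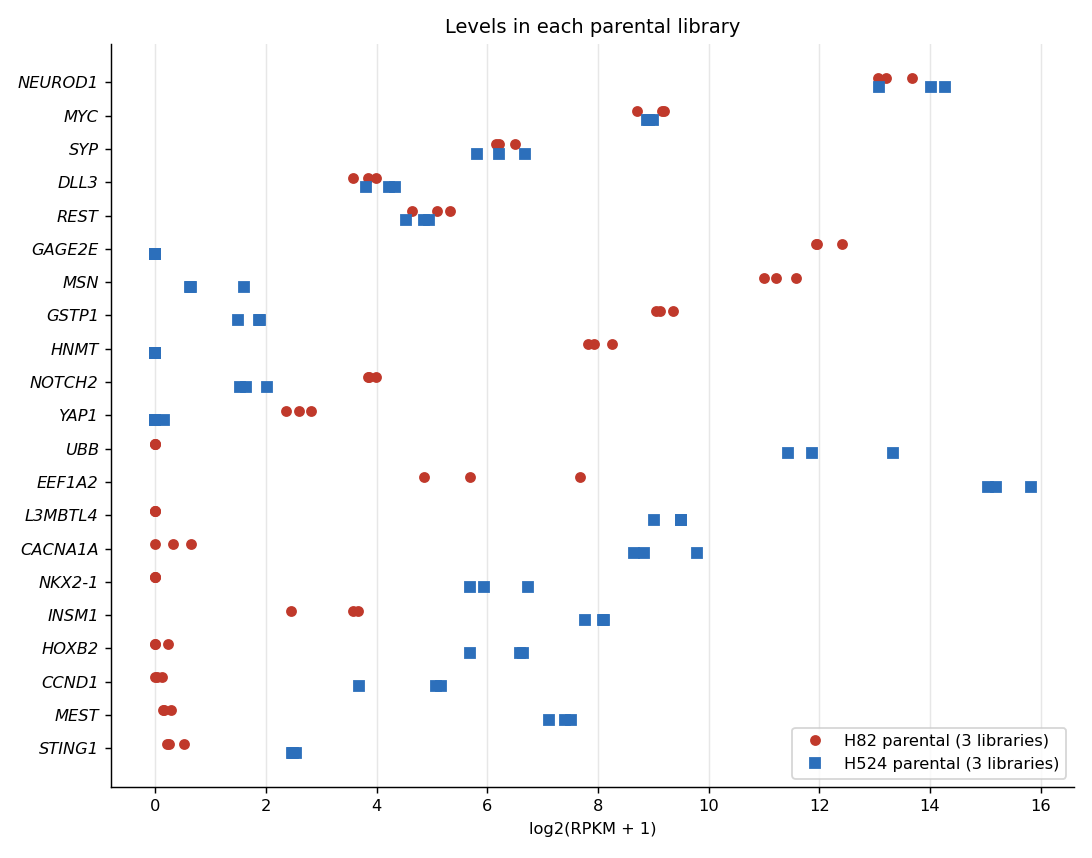
Level of selected genes, 1 row a gene, in each parental library (horizontal axis, log2(RPKM + 1)), with 3 circles for H82 and 3 squares for H524, some of them on top of each other. *NEUROD1* and *MYC* overlap between the lines, while *MSN*, *GSTP1*, *INSM1* and *EEF1A2* do not.

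Notch pathway genes went both ways, at shares near those over all genes tested (16.2% and 16.9%). Of 33 tested, 6 were higher in H82 (18.2%) and 7 in H524 (21.2%), with a median of 0.10. The counts were 8 and 4 in the uninduced vector lines and also 8 and 4 after the libraries were centered by GC content. Among receptors, *NOTCH2* was 3.99, 3.84 and 3.87 in H82 and 1.54, 1.64 and 2.03 in H524, a difference of 2.17 ± 0.23 (adjusted *P* = 0.000221), and *NOTCH1* was at most 0.73 in any library and was not tested. Among ligands, *DLL3*, which inhibits Notch in the same cell, differed by -0.32 ± 0.25 (adjusted *P* = 0.32), and the noncanonical ligand *DLK1* was higher in H524 (-4.38 ± 0.44). *LFNG*, a glycosyltransferase that modifies Notch receptors, was higher in H82 by 1.90 ± 0.21 (adjusted *P* = 0.00026). Among targets, *HEY2* differed by -1.92 ± 0.37 (adjusted *P* = 0.00379) and *REST* by 0.24 ± 0.26 (adjusted *P* = 0.481). In the MYC family and its partners, 2 of 13 were higher in H82 (15.4%) and 3 in H524 (23.1%). Its member *MYCL* was 3.11, 3.61 and 2.93 in H82 and 1.62, 0.92 and 2.14 in H524, a difference of 1.66 ± 0.35 (adjusted *P* = 0.00576).

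Antigen presentation and innate sensing genes differed in opposite directions by member. Of 16 antigen presentation genes tested, 6 were higher in H82 (37.5%) and 3 in H524 (18.8%), with a median of 0.68. *HLA-B* was at most 0.72 in every library and was not tested, and *B2M*, the shared light chain of class I, was 6.80, 6.22 and 6.06 in H82 and 7.27, 7.61 and 6.53 in H524 (difference of -0.78 ± 0.34, adjusted *P* = 0.0935). Higher in H82 were the class II genes *HLA-DPB1* (difference of 3.42 ± 0.31) and *HLA-DPA1* (3.20 ± 0.40), and *TAPBP*, the tapasin that loads class I, was higher in H524 (-2.51 ± 0.20). Values of HLA genes also depend on how closely the alleles of a line match the reference. Of 29 sensing and interferon genes tested, 5 were higher in H82 (17.2%) and 11 in H524 (37.9%), with a median of -0.30. *TMEM173*, which codes for STING, the adaptor of cytosolic DNA sensing, was 0.53, 0.25 and 0.21 in H82 and 2.49, 2.55 and 2.47 in H524, a difference of -2.17 ± 0.19 (adjusted *P* = 7.17e-05). *SLFN11*, a gene tied to sensitivity to DNA-damaging drugs, was listed at 0 in 5 of the 6 libraries and reached 0.04 in the other.

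Cytoskeletal, matrix and adhesion genes went both ways. Of 35 mesenchymal genes tested, 8 were higher in H82 (22.9%) and 13 in H524 (37.1%), with a median of -0.32. In the uninduced vector lines the balance lay the other way, with 11 of them higher in H82 and 5 in H524. There 5 of the 8 and 4 of the 13 parental calls recurred. For 18 epithelial and adhesion genes the parental counts were 6 (33.3%) and 8 (44.4%), with a median of -0.13. *MSN* (chrX:64808257-64961793 in GRCh37), the membrane-cytoskeleton linker moesin, was 11.59, 11.22 and 11.00 in H82 and 1.60, 0.65 and 0.63 in H524, a difference of 10.31 ± 0.32 (adjusted *P* = 6.21e-07). *TIMP1*, an inhibitor of matrix proteases, was higher in H82 by 4.37 ± 0.30, and the collagen gene *COL6A1* was higher in H524 (-3.42 ± 0.21, adjusted *P* = 1.23e-05). *CLDN7* was higher in H82 by 2.49 ± 0.44 and *CLDN4*, another claudin of tight junctions, in H524 (-3.06 ± 0.51, adjusted *P* = 0.00193). Of 30 receptor tyrosine kinase and ligand genes, 5 were higher in H82 (16.7%) and 13 in H524 (43.3%). Few of these calls recurred in the uninduced vector lines, 0 of the 5 and 3 of the 13, where 2 and 5 members were called. For 44 genes of the WNT, hedgehog and BMP pathways the parental counts were 3 (6.82%) and 20 (45.5%). Among them *WNT5A* was higher in H82 (3.19 ± 0.30) and *BMP6* in H524 (-4.69 ± 0.27, adjusted *P* = 1.03e-05).

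Among genes of DNA repair and drug response, 9 of 31 were higher in H82 (29%) and 5 in H524 (16.1%), with a median of 0.45. *GSTP1* (chr11:67351213-67354127 in GRCh37), a glutathione transferase that detoxifies drugs, was 9.37, 9.05 and 9.11 in H82 and 1.49, 1.89 and 1.87 in H524, a difference of 7.43 ± 0.23 (adjusted *P* = 6.21e-07). *DPYD*, which breaks down fluorouracil, was higher in H524 (-3.40 ± 0.24, adjusted *P* = 2.43e-05). In the cell cycle list 5 of 30 were higher in H82 (16.7%) and 10 in H524 (33.3%). *CCND1*, cyclin D1, was 0.12, 0.03 and 0.00 in H82 and 5.08, 3.68 and 5.17 in H524 (difference of -4.59 ± 0.39), while *CCND2*, cyclin D2, was higher in H82 by 1.57 ± 0.36 (adjusted *P* = 0.0088). Of 26 cell death genes 6 were higher in H82 (23.1%), among them *BAK1*, a pore-forming effector of apoptosis (1.35 ± 0.28). Higher in H524 were 2 (7.69%), including the survival gene *BCL2* (-2.36 ± 0.33, adjusted *P* = 0.000921). Metabolic genes had 12 of 42 higher in H82 (28.6%) and 5 in H524 (11.9%), with *CPS1*, the first enzyme of the urea cycle, at a difference of -2.09 ± 0.25.

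Among developmental and clustered families, of 24 *HOX* genes tested, 4 were higher in H82 (16.7%) and 8 in H524 (33.3%). The shares over all genes tested were 16.2% and 16.9%. Examples are *HOXA13* (2.09 ± 0.31) and *HOXB2* (-6.23 ± 0.30). Clustered protocadherins, which give neurons their surface identity, had 1 of 13 higher in H82 (7.69%) and 7 in H524 (53.8%). Imprinted genes, which are expressed from 1 parental copy, had 2 of 24 (8.33%) and 10 (41.7%). *MEST* was 0.15, 0.15 and 0.28 in H82 and 7.41, 7.12 and 7.51 in H524, a difference of -7.15 ± 0.22 (adjusted *P* = 6.21e-07). Histone genes had 1 of 29 higher in H82 (3.45%) and 16 in H524 (55.2%), with a median of -1.69. Most histone transcripts lack a poly(A) tail, and the libraries were made from poly(A) RNA. Several histone genes were highest in H524 library 20, the library with high heat shock genes, and its part in this count was not tested. Chromatin regulators had 6 of 50 higher in H82 (12%) and 8 in H524 (16%), and *ZNF* genes 30 (8.11%) and 51 (13.8%) of 370, below the shares over all genes tested. Ribosomal protein genes had 4 (5.13%) and 2 (2.56%) of 78 in the parental lines but 47 and 0 in the uninduced vector lines. Surface proteins used as drug targets had 2 (11.8%) and 5 (29.4%) of 17 in the parental lines.

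**Figure D3:**
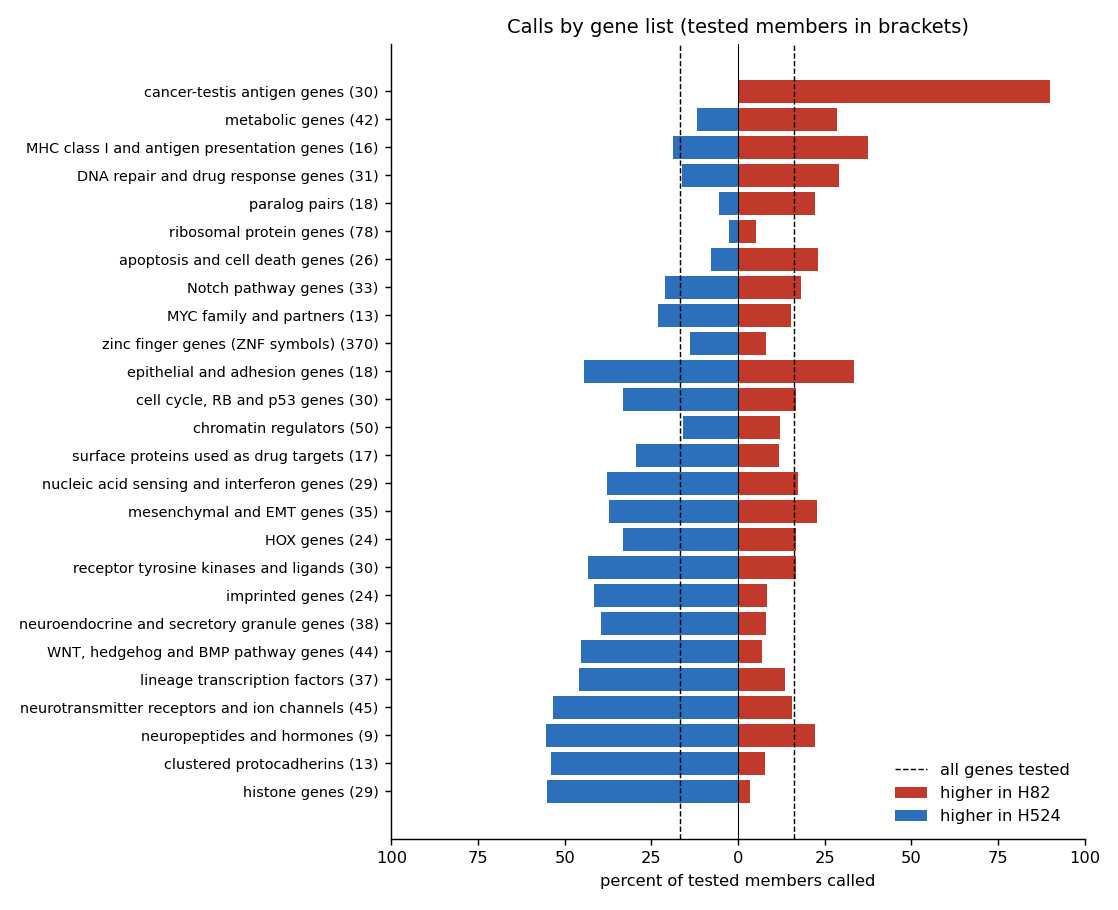
Share of the tested genes of each list called higher in H82 (bars to the right) or in H524 (bars to the left) at an adjusted P under 0.05 and a log2 difference of at least 1 (horizontal axis, percent), with the number tested in brackets. The shares over all genes tested (dashed lines) were 16.2% for H82 and 16.9% for H524, and cancer-testis antigen genes lie farthest toward H82.

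Whether these differences recurred was read from the uninduced vector libraries, which share no library with the parental ones. The H524 libraries among them were at 3 or more for more genes of the H82 side than parental H524 was, so for a call that did not recur, a feature of the line and one of the vector libraries cannot be told apart. There 12339 genes were tested, 2212 were higher in H82 (17.9%) and 1767 in H524 (14.3%). Of 1942 parental H82 calls tested again, 1066 (54.9%) were called in the same direction, 18 in the opposite one, and 91.5% had the same sign. Of 1809 parental H524 calls, 1044 (57.7%) recurred, 26 were opposite and 88.6% had the same sign. The 1066 were 48.2% of the H82 calls of the vector lines, and the 1044 were 59.1% of their H524 calls. With doxycycline 13135 genes were tested, 2443 were higher in H82 (18.6%) and 2404 in H524 (18.3%), and 43.9% and 57% of the parental calls tested there recurred.

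*MSN*, *GAGE2E*, *INSM1*, *NKX2-1* and *MEST* were among the genes that recurred, with *INSM1* at -3.31 and *MSN* at 8.65 in the vector lines. *YAP1* differed by 4.26 there, since it was 4.14 to 4.60 in the H82 vector libraries against 0.00 to 0.20 in those of H524. Others did not recur. *GABRA5*, a GABA receptor subunit, was 0.80, 0.72 and 0.41 in parental H82 and 8.46, 7.99 and 7.88 in parental H524, a difference of -7.47 ± 0.25, but was 5.00 to 6.70 in the H82 vector libraries, where the difference was -0.03. *SFRP1*, a secreted WNT inhibitor, went from -4.97 to 0.32 and *COL4A2*, a basement membrane collagen, from -3.39 to 1.47. *CPS1* went from -2.09 to 2.59, being 0.95 to 3.02 in the H524 vector libraries, and *CALCB*, a calcitonin gene-related peptide, from 2.67 to -1.75.

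In H524 the vector lines differed from one another. *GSTP1* was 5.54 to 6.12 in the NOTCH1 vector libraries and listed at 0 in the REST vector ones. Of the 62 genes higher in H82 by at least 5, the number at 3 or more was 2 to 3 in parental H524, 0 to 2 in the REST vector libraries, and 9, 17 and 11 in NOTCH1 vector libraries 22, 23 and 24. Of the 58 genes higher in H524 by at least 5, 57 were at 3 or more in each REST vector library and 52 to 57 in the NOTCH1 vector ones. All 3 NOTCH1 vector libraries of H524 thus lay above the parent, library 23 the farthest. Leaving out any 1 of the 6 uninduced vector libraries gave 1796 to 2096 recurring parental calls in place of 2110, with 1992 without library 23. These genes were chosen on the parental libraries, so their values there are a description.

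**Figure D4:**
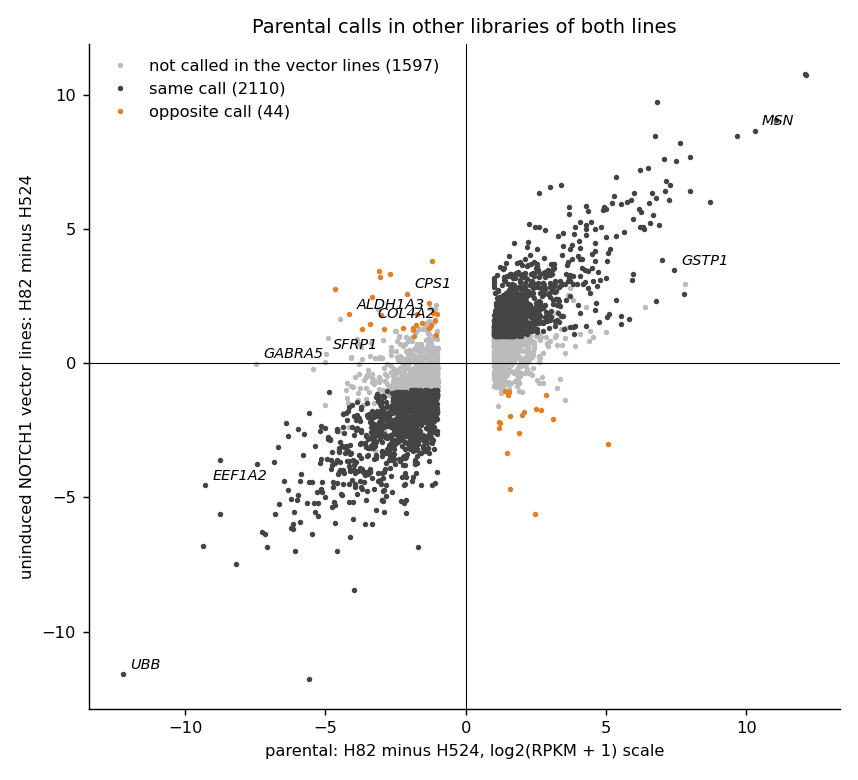
Difference H82 minus H524 in the uninduced NOTCH1 vector lines (vertical axis, log2(RPKM + 1)) against the difference in the parental lines (horizontal axis, same scale), one point per gene called between the parental lines and tested in both. In all, 2110 recur with the same call and 44 with the opposite one, among them *COL4A2* and *CPS1*.

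Differences also gathered along chromosomes. The shares by chromosome stand against 16.2% of all genes tested toward H82 and 16.9% toward H524. Chromosome 10 had a median difference of 0.90 over its 436 tested genes, of which 45% were higher in H82, and its median was 1.00 in the vector lines. Chromosome 16 had a median of -0.72 with 35.5% of 581 genes higher in H524, and was -0.50 in the vector lines. Chromosome 13 had a median of 0.74 with 34.3% of 213 genes higher in H82, but was -0.33 in the vector lines, where its genes were higher than in the parent for H524 (median of 0.60) and lower for H82 (-0.36). Copy number was not measured here. Runs of at least 4 neighboring tested genes called in the same direction numbered 57 toward H82, with 291 genes, and 45 toward H524, with 209 genes, and the longest held 9. In the vector lines 172 of 281 and 124 of 184 of these genes recurred, against 54.9% and 57.7% of all parental calls tested there.

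The longest runs were, in GRCh37 coordinates, the *GAGE* cluster at chrX:49178516-49460587 and the stretch from *ENTPD7* to *SCD* at chr10:101419266-102124583, both with 9 genes higher in H82 and with 9 and 7 of them called again in the vector lines, and *DECR2* to *RHOT2* at chr16:451858-724174, with 9 genes higher in H524. Near the end of chromosome 9, *RXRA*, *COL5A1*, *OLFM1*, *PPP1R26* and *C9orf116* (chr9:137208944-138393580) had a median of -4.89. Over windows of 25 neighboring genes the widest median toward H82 was 1.48, from *AARS2* to *DST* on chromosome 6 (chr6:44266468-56819628), and the widest toward H524 was -1.62, from *PIEZO1* to *TUBB3* on chromosome 16 (chr16:88781746-90005169).

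Part of the pattern moved with base composition. Across 10 groups of genes ordered by the GC content of their longest transcript, the median difference went from 0.37 in the lowest, with 235 genes higher in H82 and 96 in H524, to -0.83 in the highest, with 88 and 525. In the vector lines the medians of these groups were 0.44 and -0.56, and with doxycycline 0.57 and -0.95. After the libraries were centered within 20 bins of GC content, a step chosen after seeing the data, 3129 of the 4108 calls remained and 979 were lost. None was called in the opposite direction, although some genes that lost their call changed sign. The counts were then 1766 and 1987. The run from *DECR2* to *RHOT2* kept 2 of its 9 calls. After centering, cancer-testis antigen genes stood at 27 and 0 as before, lineage factors at 6 and 20 (5 and 17 before) and neuroendocrine genes at 4 and 21 (3 and 15 before). Other lists lost calls, with WNT, hedgehog and BMP pathway genes at 4 and 15 (3 and 20 before), receptor tyrosine kinases and ligands at 4 and 9 (5 and 13 before) and neuronal receptors and channels at 4 and 24 (7 and 24 before). DNA repair and drug response genes went from 9 and 5 to 6 and 6. The share of this trend that arose in the libraries and the share that belongs to the cells cannot be told apart.

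**Figure D5:**
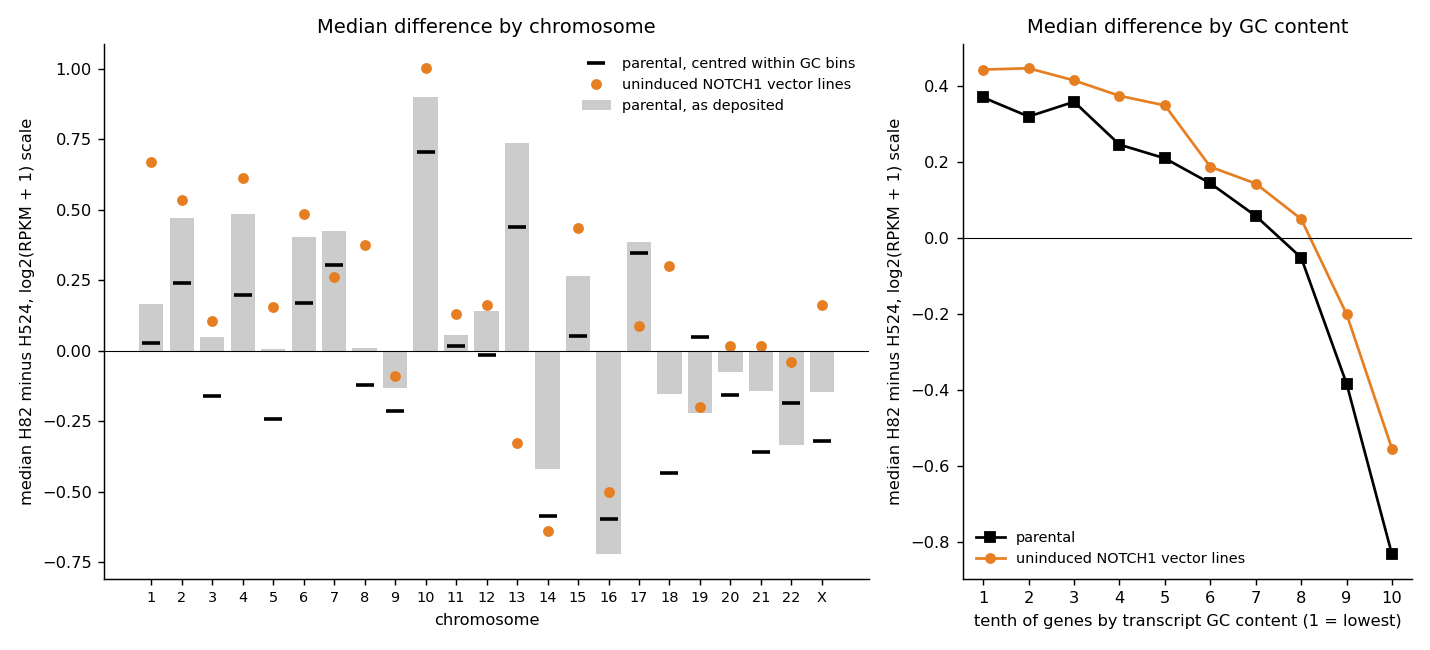
Median difference H82 minus H524 (vertical axis, log2(RPKM + 1)) by chromosome (bars for the parental lines as deposited, dashes after centering within GC bins, circles for the uninduced vector lines) and by group of genes in rising order of GC content (squares for the parental and circles for the vector lines). Chromosomes 10 and 13 lie highest and 16 lowest in the parental lines, chromosome 13 changes side in the vector lines, and the medians fall from the lowest to the highest GC group.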

How the data were processed

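Poly(A) RNA of cultured cells was sequenced from stranded mRNA libraries. The authors trimmed reads with Cutadapt, aligned them to hg19 with STAR, estimated gene expression with RSEM, scaled libraries with edgeR's TMM factors, and deposited log2(RPKM + 1) values for 20516 genes in 60 human libraries. Versions, annotation, gene lengths and whether counting used strand are not given in the sources used here. A count model could not be fitted to these values. The study used limma with voom, which needs counts.

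Here limma 3.58.1 in R 4.3.3 (lmFit, eBayes with a mean-variance trend, two-sided, Benjamini-Hochberg adjustment) was run on the deposited values of the 6 parental libraries, with genes at 1 or more in at least 3 libraries. Calls needed an adjusted p under 0.05 and a log2 difference of at least 1. The uninduced and induced NOTCH1 vector lines were fitted the same way, and the change of the line difference with doxycycline as an interaction. Errors of differences are standard errors. The model was tested on simulated data. Of 20516 genes, 18830 were placed in GRCh37 by the same symbol and 1246 by an older symbol (GENCODE annotation lifted to that build).

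The comparison and the gene lists were chosen with earlier results of these data known. Named were genes fixed by the question, for each list up to 3 called genes in each direction with the largest difference among those without overlap and the member nearest 0, and the 10 widest differences in each direction. Other named genes (for example *MAGEC1*, *SCG5*, *COL1A1* and *PTPRC*) were chosen after their values were seen. Some genes that the rule names are not reported here. Alternatives covered the pseudocount, filters, normalization, samples and variance model, thresholds and each library left out. GC centering and leaving out libraries 1 and 20 were chosen after seeing the data.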

Additional observations from a re-analysis of the deposited data

Results flagged for a closer look

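The difference between the lines was itself compared without and with doxycycline, since both NOTCH1 vector lines were sequenced in each state. Of 13899 genes tested, 2334 (16.8%) had an H82 minus H524 difference that changed, 1143 rising and 1191 falling (limma interaction, adjusted *P* under 0.05 and a change of at least 1 in log2 units). For *NEUROD1* the H82 minus H524 difference became more negative, with a change of -4.73 (adjusted *P* = 0.000319), so that the lines moved apart. Its mean went from 13.81 to 4.72 in H82 and from 14.01 to 9.64 in H524. The neuroendocrine genes *SYP* and *CHGA* changed by -4.65 and -4.61 in the same direction. *SYP* went from 6.96 to 0.99 in H82 and from 6.68 to 5.37 in H524, and *CHGA* from 6.18 to 0.41 and from 6.82 to 5.66. *YAP1* changed by -3.49, from 4.36 to 6.93 in H82 and from 0.10 to 6.16 in H524, so that for this gene the lines moved closer. *NOTCH1*, whose reads may include those of the vector, changed by -3.17, *MYCL* by -1.91 and *NOTCH2* by -1.50. Without H524 vector library 23, 2625 genes changed. The cause of these differences was not tested.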

How the results depend on the processing

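Read depth was unknown, which limits what a value at or near 0 can show, and *P* values rest on 3 libraries a line. No paired analysis was possible because the parental libraries of the lines carry different numbers (1 to 3 and 19 to 21). With a log2 difference of at least 2 the parental counts were 519 and 846, those of the uninduced vector lines 596 and 708, those with doxycycline 663 and 817, the changes with induction 976 and the recurring parental calls 647 (in place of 2014, 2094, 2212, 1767, 2443, 2404, 2334 and 2110). Without a fold threshold the counts with doxycycline were 4559 and 3960. Genes listed at 0 in H82 and present in H524 numbered 44 with a floor of 0.1 and 53 with a level of 2 (28 in the report). Leaving out each library gave 1792 to 2088 and 1801 to 2166 parental calls, 1649 to 2562 and 1392 to 1914 in the vector lines, 2192 to 2638 and 2196 to 2531 with doxycycline, 1851 to 3058 changes with induction and 1796 to 2121 recurring calls. After GC centering the window on chromosome 16 was -1.01, chromosome 10 was 0.70, chromosome 13 was 0.44 and chromosome 16 was -0.60. The cause was not tested. Under it *C14orf80* (0.22), *MFSD3* (0.057), *MRPL36* (0.12), *RECQL4* (0.051) and *SIRT6* (0.056) changed sign and lost their call, and *HES6* (1.19) changed sign and was called. Over 490 named genes, leaving out 1 library kept 2772 of 2940 values on their side of the threshold, with 167 weaker and 1 stronger, and under GC centering 89 of 490 were weaker, 3 stronger and 6 of the other sign.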
